A study of Mus musculus with 13 samples.

Results

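Genes of oxidative phosphorylation were followed in RNA-seq profiles of natural killer (NK) cells from mouse liver and spleen. The set was made of protein-coding nuclear genes whose symbols begin with Ndufa, Ndufb, Ndufc, Ndufs, Ndufv, Sdha to Sdhd, Uqcr, Cox4 to Cox8 or Atp5. It held 98 of the 54532 gene identifiers in the deposited tables and was set beside the 13 protein genes of the mitochondrial genome, written mt-. By role, the 98 nuclear members were 36 genes of complex I, 4 of complex II, 8 of complex III, 20 of complex IV and 18 of complex V. Complex IV includes Ndufa4, Ndufa4l2 and Cox7a2l. The other 12 are assembly factors that the prefixes Ndufaf and Sdhaf brought in. The prefixes miss Cyc1 and Cycs, and the ATP synthase inhibitor, whose symbol here is Atpif1.

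The 4 groups were sorted NK cells of C57BL/6J mice aged 8 to 10 weeks. They were liver-resident NK cells (LrNK) labelled CD8KO in 3 libraries, LrNK of wild-type (B6) mice in 4 libraries, conventional NK cells (cNK) labelled CD8KO in 3 libraries and cNK of B6 mice in 3 libraries. The LrNK libraries are labelled liver lymphocytes and the cNK libraries splenocytes, so cell type and organ cannot be told apart. No label says whether replicates came from separate animals, so p-values measure the spread between these samples, which may be technical. The label comparison asks how NK cells labelled CD8KO differ from those of B6 mice, and the cell type comparison asks how liver-resident and conventional NK cells differ.

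Oxidative phosphorylation moves electrons from NADH (complex I) and succinate (complex II) through complex III to oxygen at complex IV, and the proton gradient built on the way drives ATP synthesis by complex V. Most subunits are encoded in the nucleus and imported, while a few hydrophobic core subunits of complexes I, III, IV and V are encoded by mitochondrial DNA, and complex II is wholly nuclear. Resting NK cells are known to draw much of their ATP from this pathway, and activated NK cells raise both it and glycolysis. Roles given below are those established for the mouse, bovine or human enzymes.

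Some libraries stood apart. LrNK labelled CD8KO libraries 2 and 3 agreed closely (chi-square per degree of freedom 2.67), as did LrNK B6 libraries 2 and 4 (3.04), against 196 to 283 for other LrNK pairs. Each such pair was summed to 1 sample, leaving 2 LrNK labelled CD8KO, 3 LrNK B6, 3 cNK labelled CD8KO and 3 cNK B6 samples. In LrNK labelled CD8KO sample 1 and LrNK B6 samples 1 and 3, 13917 to 15797 genes were detected, against 19896 to 22921 in all other libraries. Depth was 30578631 to 47655853 counts in LrNK libraries and 48600875 to 72716020 in cNK libraries. The biological coefficient of variation was 42.8 and 41.7 percent in LrNK labelled CD8KO and LrNK B6, against 9.52 and 8.86 percent in cNK labelled CD8KO and cNK B6. Fits that held both LrNK and cNK gave them a shared spread per gene, which does not match either cell type. The errors, p-values and calls of those fits carry this limit. The gene named in the label went against it. Cd8a had 41.6, 42.6 and 45.1 CPM, the counts of a gene scaled to a common library total, in libraries of LrNK labelled CD8KO, 18.5 to 22.4 in LrNK B6, 85.9 to 109 in cNK labelled CD8KO and 0.561 to 0.578 in cNK B6. Which part of Cd8a is altered is not given in the sources used here, and directions drawn from the label below carry this limit. The 5 LrNK markers summed to 723 to 734 CPM in LrNK labelled CD8KO and 999 to 1331 in LrNK B6, against 78.2 to 83.4 in cNK labelled CD8KO and 66.6 to 78.6 in cNK B6. The 10 NK markers, which include the cNK marker Eomes, summed to 4713 and 5598 CPM in LrNK labelled CD8KO, 9946 to 12119 in LrNK B6 and 13353 to 14667 in cNK. The 7 cNK markers summed to 277 and 152 CPM in LrNK labelled CD8KO and 98.9, 70.8 and 120 in LrNK B6, against 3887 to 4271 in cNK. The 3 plasma cell markers summed to 41.4 and 27.5 CPM in LrNK labelled CD8KO and 1.93, 4.70 and 21.1 in LrNK B6, against 1.64 to 2.84 in cNK. The 5 B cell markers summed to 11.8 and 113 CPM in LrNK labelled CD8KO and 10.3 to 16.2 in LrNK B6. Markers of some other cells were also higher in LrNK, and others overlapped. The 4 endothelial markers summed to 84.3 to 118 CPM in LrNK and 97.5 to 111 in cNK, and the 6 Kupffer cell markers to 24.2 to 200 CPM in LrNK and 44.7 to 69.8 in cNK. The 4 muscle markers summed to 1.42 and 0.212 CPM in LrNK labelled CD8KO and at most 0.0544 in LrNK B6, against 0.0583 to 1.54 in cNK. The 6 neutrophil and monocyte markers summed to 9008 and 2669 CPM in LrNK labelled CD8KO and 2310, 688 and 4280 in LrNK B6, against 285 to 358 in cNK, with 0 of the 6 at 0 in any group. The 6 T cell markers summed to 126 and 131 CPM in LrNK labelled CD8KO and 94.4, 78.9 and 116 in LrNK B6, against 20.3 to 35.1 in cNK. The 4 erythroid markers summed to 296 and 3023 CPM in LrNK labelled CD8KO and 284, 143 and 1016 in LrNK B6, against at most 5.46 in cNK. The 8 hepatocyte markers summed to 20.1 to 57.1 CPM in LrNK, against at most 1.16 in cNK, where 4 of the 8 were at 0 in all samples labelled CD8KO and 3 in all B6 samples. The part of these values in the results below was not tested, and in bulk RNA fewer cells of a type and less RNA per cell cannot be told apart.

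LrNK B6 samples gave the largest share of their counts to the nuclear members. That share was 0.740 and 0.689 percent of all counts in LrNK labelled CD8KO, 0.799, 0.855 and 0.942 percent in LrNK B6, 0.726, 0.728 and 0.685 percent in cNK labelled CD8KO and 0.692, 0.726 and 0.677 percent in cNK B6. The means were 0.714 ± 0.0363 (SD, n = 2), 0.865 ± 0.0721, 0.713 ± 0.0245 and 0.698 ± 0.0253 percent (SD, n = 3 each), and only LrNK B6 stood clear of the other 3 groups. Complex V took the largest share in every sample, 0.259 to 0.280 percent in LrNK labelled CD8KO, 0.295 to 0.331 percent in LrNK B6 and 0.246 to 0.268 percent in cNK. Complex II took 0.0345 and 0.0471 percent in LrNK labelled CD8KO and 0.0368 to 0.0581 percent in LrNK B6, and both ranges overlapped the 0.0457 to 0.0514 percent of cNK. The assembly factors together took 0.0135 to 0.0197 percent in LrNK and 0.0170 to 0.0179 percent in cNK.

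**Figure D1:**
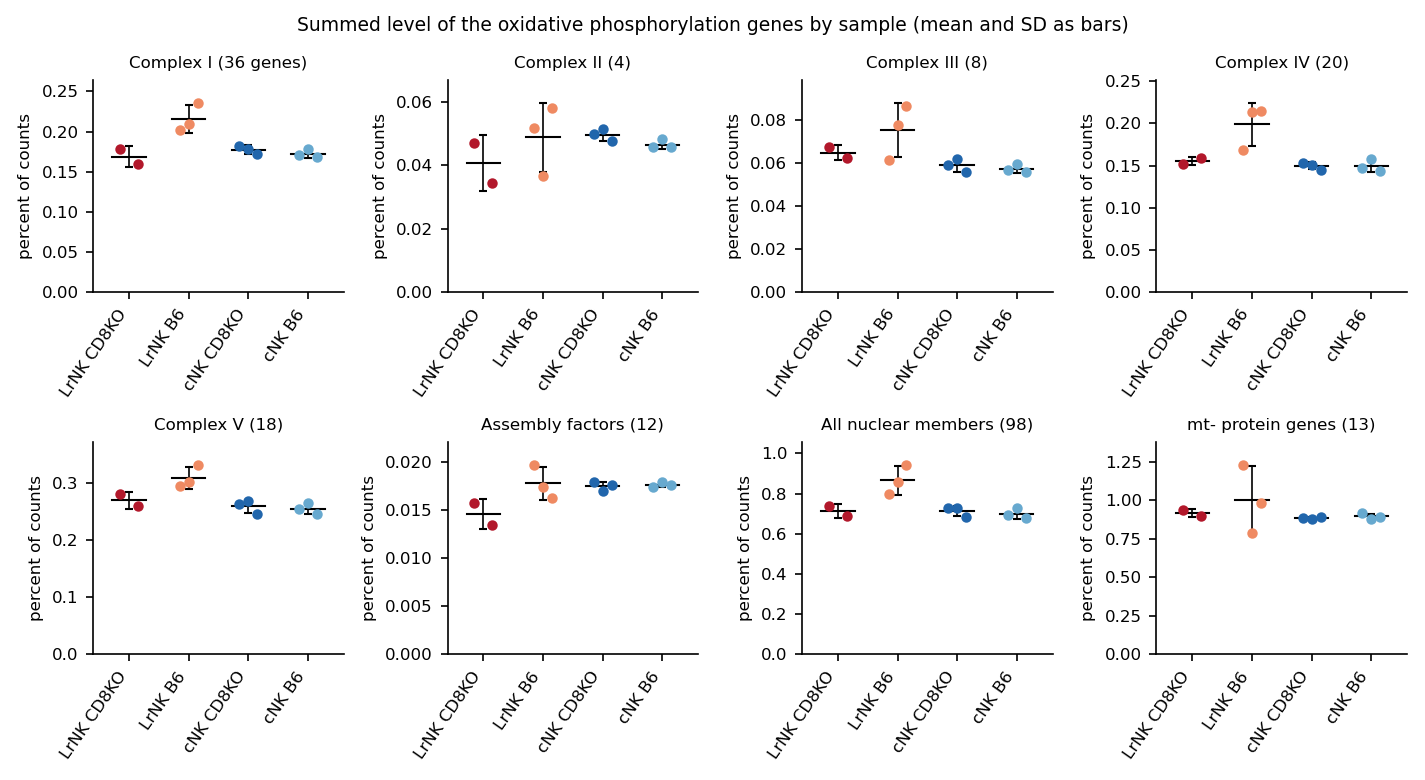
Percent of all counts (vertical axes) given to each complex, the assembly factors, all 98 nuclear members and the 13 mt- protein genes, with 1 point per sample in LrNK CD8KO (n = 2), LrNK B6, cNK CD8KO and cNK B6 (n = 3 each), the mean as a line and the SD as a bar. The LrNK B6 samples sit at 0.799 to 0.942 percent for all nuclear members, above every other sample, while their mt- values spread over 0.787 to 1.23 percent.

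Per kilobase of exon, levels within a complex were far from equal. In complex V the catalytic F1 subunits Atp5a1 and Atp5b stood at 171 and 150 CPM per kb in LrNK labelled CD8KO, 165 and 152 in LrNK B6, 160 and 141 in cNK labelled CD8KO and 155 and 141 in cNK B6. Cox6a1 and Cox8a, small subunits of complex IV, were the highest of the nuclear members on this scale, with 388 and 353 CPM per kb in LrNK labelled CD8KO, 524 and 490 in LrNK B6, 302 and 341 in cNK labelled CD8KO and 305 and 329 in cNK B6. In complex I the accessory subunits Ndufb11 and Ndufa1 were among the highest, with 156 and 115 CPM per kb in LrNK B6 and 111 and 104 in cNK B6. In complex III the small subunits Uqcr10 and Uqcrh were among the highest, with 112 and 92.8 CPM per kb in LrNK B6 and 72.9 and 81.8 in cNK B6. The complex II flavoprotein Sdha and membrane anchor Sdhd had 51.0 and 69.5 CPM per kb in LrNK B6 and 59.0 and 54.1 in cNK B6.

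In B6 mice, subunits of all 5 complexes were higher in LrNK than in cNK. Of 92 members tested with edgeR's quasi-likelihood test, 18 were called higher in LrNK B6 at a Benjamini-Hochberg adjusted p under 0.05 over all genes, against 10.9 percent of all 16456 genes, and 0 were called lower, against 9.83 percent of all genes. The called members were 7 of 36 in complex I, 1 of 4 in complex II, 2 of 8 in complex III, 4 of 15 in complex IV, 4 of 17 in complex V and 0 of 12 assembly factors. The median log2 change over the 92 members was 0.41 (quartiles 0.17 and 0.63), against -0.08 over all genes, with 76 members above 0. By CPM per library total, all LrNK B6 samples lay above all cNK B6 samples for 33 members, against 17.0 percent of all genes, and below them for 7 members, against 31.7 percent of all genes. By complex the medians lay close together, at 0.42 for I, 0.26 for II, 0.42 for III, 0.43 for IV, 0.41 for V and 0.40 for the assembly factors. With an unadjusted p under 0.05 there were 39 of 92 members and 5454 of 16456 genes, and DESeq2 called 31 higher and 0 lower. The test used a spread per gene shared by LrNK B6 and cNK B6, whose coefficients of variation were 41.7 and 8.86 percent, and its p-values carry this limit. Printed CPM are per library total, while fold changes follow TMM scaling, which moved LrNK B6 up by 0.08 (log2) against cNK B6. Without the LrNK B6 samples with few detected genes, 1 LrNK B6 sample was left. The spread then came from cNK alone, so calls of that fit are not given. Without any 1 of the cNK B6 samples 1 member was called higher.

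Complex I held the largest called difference. Ndufc2, an accessory subunit of the membrane arm (chr7:97400003-97407802, plus strand, GRCm38), had 49.6, 37.3 and 50.8 CPM in LrNK B6 and 21.1, 23.1 and 20.8 CPM in cNK B6. The groups did not overlap, and the log2 change was 1.16 ± 0.15 (SE, adjusted p = 0.00366). Ndufs7, the core subunit that carries the last iron-sulphur cluster before ubiquinone, had 94.1, 93.0 and 116 CPM in LrNK B6 and 67.2, 72.6 and 70.1 CPM in cNK B6, a log2 change of 0.61 ± 0.12 (adjusted p = 0.0164). Ndufs8, the neighbouring iron-sulphur core subunit, had 63.2, 53.2 and 59.3 CPM in LrNK B6 and 43.9, 43.6 and 42.1 CPM in cNK B6 (log2 change 0.52 ± 0.11, adjusted p = 0.0193). Both core subunits were higher in every LrNK B6 sample. Among accessory subunits, Ndufv3 of the NADH-oxidising module had 58.3, 69.4 and 75.9 CPM in LrNK B6 and 44.6, 45.6 and 43.3 CPM in cNK B6 (0.69 ± 0.14, adjusted p = 0.0183). Ndufs6, which binds zinc in the same module, had 42.2, 55.9 and 55.1 CPM in LrNK B6 and 34.5, 36.4 and 34.5 CPM in cNK B6 (0.63 ± 0.16, adjusted p = 0.0389). The membrane arm subunits Ndufb6 and Ndufb7 completed the group. Ndufb6 had 28.2, 32.3 and 30.6 CPM in LrNK B6 and 19.7, 21.1 and 19.7 CPM in cNK B6 (0.67 ± 0.15, adjusted p = 0.0268). Ndufb7 had 110, 111 and 112 CPM in LrNK B6 and 90.3, 89.0 and 88.1 CPM in cNK B6 (0.40 ± 0.10, adjusted p = 0.0318), the smallest change among the called members. The catalytic end was not uniform: Ndufs1, the large iron-sulphur subunit, had 74.1, 37.3 and 69.8 CPM in LrNK B6 and 67.4, 67.8 and 74.2 CPM in cNK B6, with groups that overlapped. Ndufb2 had the lowest log2 change of complex I, -0.96 ± 0.59 (adjusted p = 0.322), followed by Ndufab1 at -0.22 ± 0.18 (adjusted p = 0.469). Ndufa2 had the highest that was not called, 0.74 ± 0.29 (adjusted p = 0.124). Of the called genes, Ndufb6 shares 39 percent of its exon bases with Smim27, and reads of overlapping genes cannot be told apart.

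In complexes II and III the called members were a membrane anchor and small subunits, not the catalytic ones. Sdhc, which with Sdhd anchors complex II and binds ubiquinone, had 83.0, 80.1 and 128 CPM in LrNK B6 and 59.9, 66.7 and 57.8 CPM in cNK B6 (log2 change 0.73 ± 0.19, adjusted p = 0.0384). Sdha, the flavoprotein that oxidises succinate, had 255, 158 and 219 CPM in LrNK B6 and 240, 250 and 241 CPM in cNK B6, and the groups overlapped (-0.14 ± 0.16, adjusted p = 0.618). Sdhd, the other anchor, lay at 0.43 ± 0.21 (adjusted p = 0.223). Uqcr11, a small subunit of complex III, had 61.2, 68.3 and 56.7 CPM in LrNK B6 and 34.3, 39.4 and 38.5 CPM in cNK B6 (0.82 ± 0.15, adjusted p = 0.0120). Both Sdhc and Uqcr11 stood clear of cNK B6 in every LrNK B6 sample. Uqcrq, which sits beside cytochrome b, was uneven, with 69.9, 116 and 159 CPM in LrNK B6 and 53.0, 57.4 and 54.2 CPM in cNK B6 (1.15 ± 0.29, adjusted p = 0.0339). Uqcrfs1, the Rieske iron-sulphur protein, had 84.3, 68.9 and 123 CPM in LrNK B6 and 78.2, 82.8 and 70.3 CPM in cNK B6 and did not pass (adjusted p = 0.330).

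Complex IV gave 4 called members. Cox6a1, the form of subunit VIa used outside striated muscle, had 291, 427 and 384 CPM in LrNK B6 and 209, 227 and 207 CPM in cNK B6 (log2 change 0.87 ± 0.18, adjusted p = 0.0214). Cox8a, the smallest subunit, had 252, 316 and 342 CPM in LrNK B6 and 197, 216 and 198 CPM in cNK B6 (0.66 ± 0.15, adjusted p = 0.0277). Neither gene's groups overlapped. Cox5a, which contacts subunit IV, had 57.6, 53.8 and 72.4 CPM in LrNK B6 and 36.8, 40.4 and 37.7 CPM in cNK B6 (0.76 ± 0.14, adjusted p = 0.0127). Cox7a2l, a relative of subunit VIIa that links complexes III and IV and is shortened in C57BL/6 mice, had 196, 213 and 215 CPM in LrNK B6 and 147, 168 and 144 CPM in cNK B6 (0.52 ± 0.12, adjusted p = 0.0290). Cox6b2 and Cox7a1, at about 1 CPM in cNK, had the lowest log2 changes of the complex, -2.20 ± 1.43 and -2.92 ± 1.85, and did not pass.

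In complex V the 4 called members were subunits of the rotor, the stalk and the membrane part, not the catalytic pair. Atp5g1, 1 of 3 genes for the c subunit of the proton-driven ring, had 59.9, 86.1 and 65.0 CPM in LrNK B6 and 42.6, 42.2 and 40.2 CPM in cNK B6 (0.85 ± 0.19, adjusted p = 0.0248). Atp5d, the delta subunit of the rotor, had 195, 293 and 242 CPM in LrNK B6 and 144, 150 and 144 CPM in cNK B6 (0.83 ± 0.19, adjusted p = 0.0258). All 3 LrNK B6 samples were above all 3 cNK B6 samples for both genes. Atp5o, the stalk subunit that confers oligomycin sensitivity, had 15.2, 14.0 and 20.3 CPM in LrNK B6 and 9.90, 10.1 and 10.1 CPM in cNK B6 (0.79 ± 0.22, adjusted p = 0.0458), and it shares 47.9 percent of its exon bases with other genes. The small membrane subunit Atp5mpl had 56.5, 67.4 and 72.0 CPM in LrNK B6 and 47.7, 47.4 and 42.8 CPM in cNK B6 (0.59 ± 0.14, adjusted p = 0.0316). The catalytic Atp5b had 654, 606 and 669 CPM in LrNK B6 and 597, 624 and 576 CPM in cNK B6, with overlapping groups (0.18 ± 0.10, adjusted p = 0.281). Atp5e, the epsilon subunit, was uneven, with 159, 455 and 208 CPM in LrNK B6 and 145, 152 and 138 CPM in cNK B6 (1.03 ± 0.41, adjusted p = 0.135). Atp5s, known as factor B, had the lowest log2 change of complex V, -0.36 ± 0.55 (adjusted p = 0.721).

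**Figure D2:**
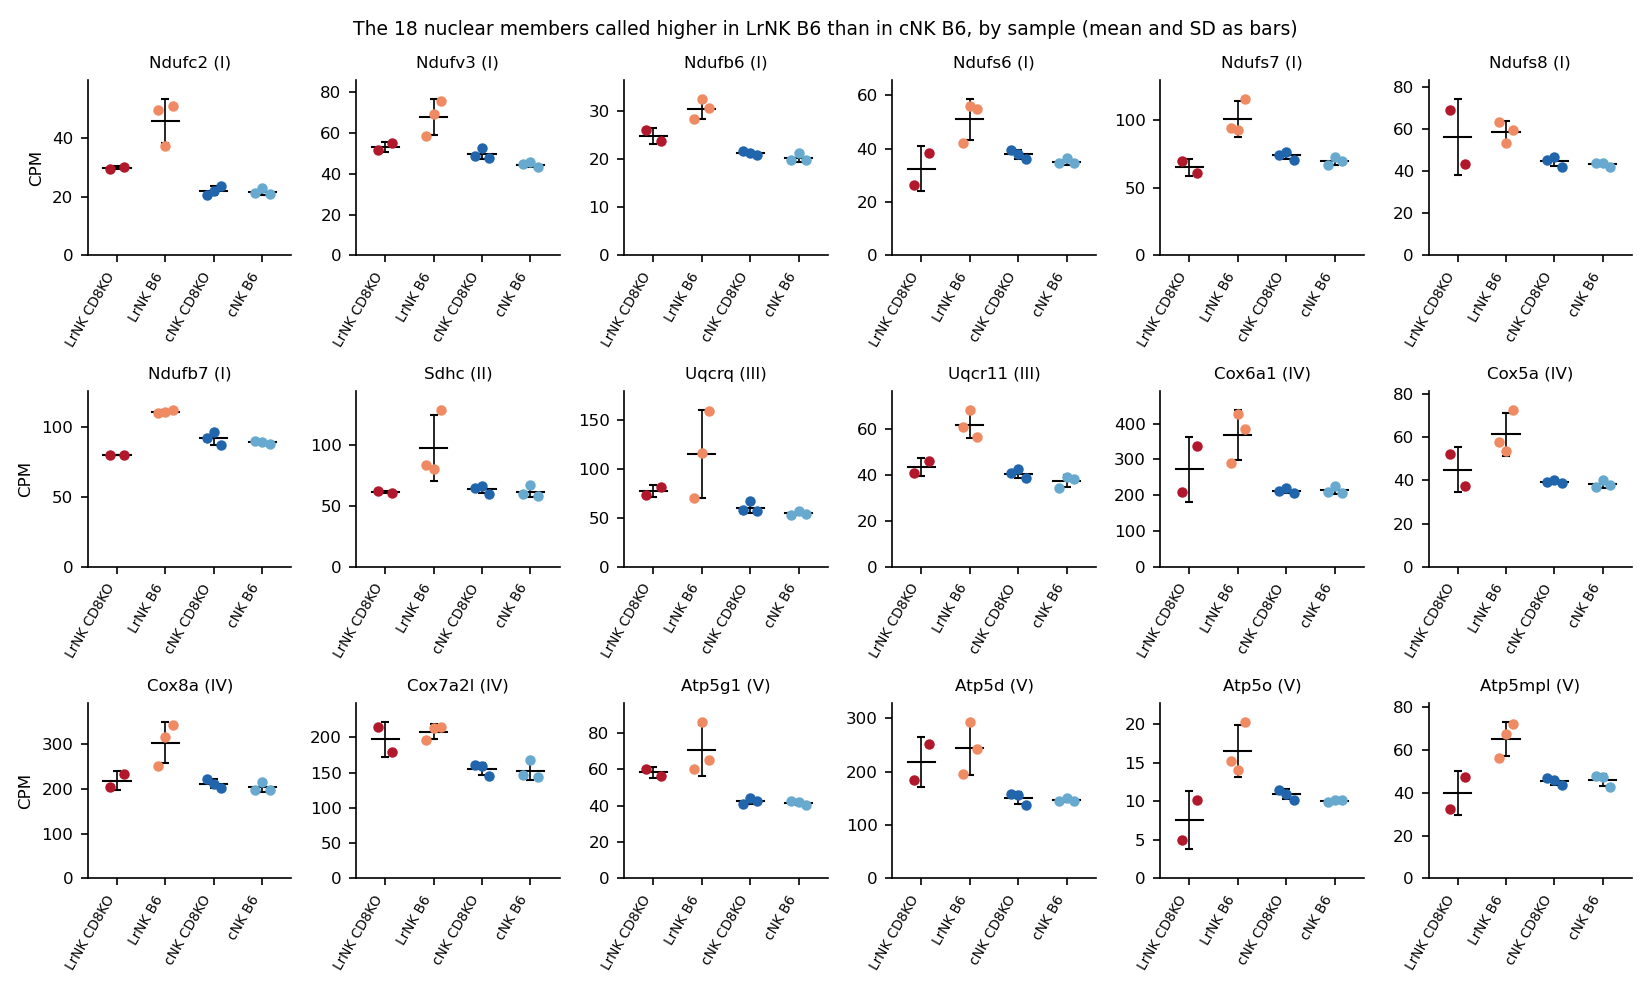
CPM (vertical axes) of the 18 nuclear members called higher in LrNK B6 than in cNK B6, with 1 point per sample in LrNK CD8KO (n = 2), LrNK B6, cNK CD8KO and cNK B6 (n = 3 each), the mean as a line and the SD as a bar. In all 18 panels the LrNK B6 points lie above the cNK B6 points, and for Ndufb7 they lie at 110 to 112 against 88.1 to 90.3 CPM.

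Of the assembly factors, proteins that build the complexes without staying in them, edgeR called 0 of 12 in LrNK B6 against cNK B6. An unadjusted p under 0.05 was found for 3 of the 12, against 5454 of 16456 genes, and 9 of the 12 had a log2 change above 0. Sdhaf1, known in yeast and human cells for handling the iron-sulphur subunit of complex II, had 3.36, 2.91 and 7.43 CPM in LrNK B6 and 0.976, 1.47 and 1.10 CPM in cNK B6 (log2 change 2.01 ± 0.62, adjusted p = 0.0660), and shares 69.6 percent of its exon bases with another gene. Ndufaf8, a partner of Ndufaf5 in complex I assembly, had 25.7, 28.4 and 17.8 CPM in LrNK B6 and 12, 14.1 and 15.6 CPM in cNK B6 (0.88 ± 0.25, adjusted p = 0.0509). For both genes the LrNK B6 samples were the higher ones without overlap. Ndufaf1 and Ndufaf4, complex I assembly factors, were the lowest. Ndufaf1 had 9.68, 11.6 and 3.02 CPM in LrNK B6 and 17.2, 17.4 and 17.8 CPM in cNK B6 (-1.0 ± 0.49, adjusted p = 0.217). Ndufaf4 lay at -0.91 ± 0.51 (adjusted p = 0.276), and for both genes all LrNK B6 samples were the lower ones.

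Promoters of the nuclear members, whether called or not, were read for motifs of factors known for mitochondrial genes. The letters searched on both strands were GCGCANGCG for NRF1, CCGGAAGT for ETS factors such as GABP, AAGATGGC for YY1, CCCGCCC for SP factors, and TATAAA. The windows, from RefSeq and GRCm38.p6, ran from 250 bases before to 50 after the start. Of 97 member symbols, 78 had a promoter in the RefSeq table. The NRF1 letters stood in 30.8 percent of these (24 of 78), against 7.03 percent of 27025 genes with a window of the same length. YY1 letters stood in 12.8 against 3.19 percent, ETS letters in 6.41 against 4.31 percent, SP in 35.9 against 27.9 percent and TATAAA in 10.3 against 15.7 percent. Of the 15 members called in LrNK B6 against cNK B6 that had a promoter, 4 held NRF1, 2 ETS, 2 YY1, 4 SP and 2 TATAAA. The NRF1 letters nearly mirror themselves, so both strands can match in 1 place, which counted once per promoter. Windows of 4 called members follow, from complexes III, IV and I, with the motif letters in capitals: Uqcr11 (chr10:80406772-80407071, minus strand) with ETS and then NRF1, Cox6a1 (chr5:115348909-115349208, minus strand) with NRF1 in a pair of places and then SP, Ndufs6 (chr13:73328433-73328732, minus strand) with NRF1 and then YY1, and Ndufc2 (chr7:97399753-97400052, plus strand), the member with the largest called change, with none of the letters. Matches on the opposite strand appear as the reverse complement, as NRF1 does in Uqcr11 and Ndufs6.
Uqcr11: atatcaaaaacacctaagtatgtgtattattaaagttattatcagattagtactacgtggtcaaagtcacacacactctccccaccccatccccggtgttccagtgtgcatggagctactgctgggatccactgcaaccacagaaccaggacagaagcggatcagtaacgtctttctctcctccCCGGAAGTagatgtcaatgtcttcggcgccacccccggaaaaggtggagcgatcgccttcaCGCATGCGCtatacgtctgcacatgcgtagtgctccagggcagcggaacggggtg
Cox6a1: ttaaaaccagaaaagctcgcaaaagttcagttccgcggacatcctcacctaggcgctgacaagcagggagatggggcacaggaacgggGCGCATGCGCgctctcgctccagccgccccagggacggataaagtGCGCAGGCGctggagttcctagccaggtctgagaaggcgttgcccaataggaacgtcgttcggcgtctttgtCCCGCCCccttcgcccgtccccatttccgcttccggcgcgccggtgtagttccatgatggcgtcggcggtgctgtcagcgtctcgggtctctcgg
Ndufs6: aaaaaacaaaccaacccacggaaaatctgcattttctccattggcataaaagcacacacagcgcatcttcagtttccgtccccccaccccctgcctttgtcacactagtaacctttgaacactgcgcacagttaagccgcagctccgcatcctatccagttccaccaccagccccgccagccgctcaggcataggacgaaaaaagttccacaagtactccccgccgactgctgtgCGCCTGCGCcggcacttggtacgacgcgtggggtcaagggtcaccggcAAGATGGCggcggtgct
Ndufc2: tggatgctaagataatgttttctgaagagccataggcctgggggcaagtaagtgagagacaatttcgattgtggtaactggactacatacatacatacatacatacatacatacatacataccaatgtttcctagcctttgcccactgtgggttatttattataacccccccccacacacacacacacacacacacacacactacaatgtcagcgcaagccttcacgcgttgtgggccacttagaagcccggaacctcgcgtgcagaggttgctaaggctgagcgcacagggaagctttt
A match describes the letters only and is not a site of binding, and the absence of a match in Ndufc2 says only that these letters are not in its window.

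In mice labelled CD8KO, few nuclear members were called between LrNK and cNK, in each direction a smaller share than of all genes. Whether the number of calls differed from that in B6 was not tested. Of 93 members tested, edgeR called 6 higher in LrNK labelled CD8KO, against 15.4 percent of all 17795 genes, and 2 lower, against 11.6 percent of all genes. The median log2 change was 0.07, against -0.05 over all genes, and by complex it was 0.05 for I, -0.04 for II, 0.34 for III, 0.17 for IV, -0.01 for V and -0.02 for the assembly factors. For 13 members all LrNK samples labelled CD8KO were above all cNK samples labelled CD8KO, against 23.3 percent of all genes, and for 26 they were below, against 38.4 percent of all genes. Without sample 1, the LrNK sample labelled CD8KO with few detected genes, or without sample 2, 1 LrNK sample was left. The spread then came from cNK alone, so calls of those fits are not given. Without any 1 of the cNK samples labelled CD8KO, edgeR called 0 in either direction. With an unadjusted p under 0.05 there were 18 of 93 members and 6966 of 17795 genes with all samples, and DESeq2 called 10 higher and 6 lower.

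Of the 8 nuclear calls in LrNK labelled CD8KO, 3 were in complex V, 2 in complex I, 1 each in complexes III and IV and 1 was an assembly factor. In complex V, Atp5g1 had 60.4 and 56.1 CPM in LrNK labelled CD8KO and 41.0, 44.2 and 42.6 CPM in cNK labelled CD8KO (log2 change 0.57 ± 0.10, adjusted p = 0.0112). Atp5d had 185 and 251 CPM in LrNK labelled CD8KO and 157, 156 and 138 CPM in cNK labelled CD8KO (0.67 ± 0.18, adjusted p = 0.0451). Both stood without overlap above cNK. In complex I the membrane arm subunits Ndufc1 and Ndufc2 were called. Ndufc2 had 29.5 and 30.2 CPM in LrNK labelled CD8KO and 20.7, 22.1 and 23.5 CPM in cNK labelled CD8KO (0.56 ± 0.12, adjusted p = 0.0251). Ndufc1 had 17.9 and 15.4 CPM in LrNK labelled CD8KO and 11.7, 12.4 and 13 CPM in cNK labelled CD8KO (0.55 ± 0.14, adjusted p = 0.0401). Uqcrq of complex III had 73.2 and 81.6 CPM in LrNK labelled CD8KO and 58.0, 66.8 and 56.7 CPM in cNK labelled CD8KO (0.48 ± 0.13, adjusted p = 0.0484). Cox7a2l of complex IV had 215 and 180 CPM in LrNK labelled CD8KO and 161, 159 and 145 CPM in cNK labelled CD8KO (0.47 ± 0.11, adjusted p = 0.0279). The lower calls were an assembly factor and a dimer subunit of complex V. Ndufaf1 had 8.10 and 5.69 CPM in LrNK labelled CD8KO and 17.3, 15.7 and 17.2 CPM in cNK labelled CD8KO (-1.16 ± 0.19, adjusted p = 0.0107). Atp5k, which helps complex V form dimers, had 19.4 and 19.8 CPM in LrNK labelled CD8KO and 33, 28 and 32.4 CPM in cNK labelled CD8KO (-0.54 ± 0.14, adjusted p = 0.0383). In B6 mice Atp5k had 43.7, 27.1 and 32.4 CPM in LrNK and 30.3, 32.3 and 30.4 CPM in cNK, which overlapped. Other members at the ends of their complexes did not pass. In complex I, Ndufs1 had 52.2 and 32.8 CPM in LrNK labelled CD8KO and 68.9, 71.4 and 74.1 CPM in cNK labelled CD8KO (-0.64 ± 0.18, adjusted p = 0.0532), below in both samples, and Ndufb2 lay at -0.58 ± 0.40. In complex II, Sdha had 219 and 165 CPM in LrNK labelled CD8KO and 269, 277 and 261 CPM in cNK labelled CD8KO (-0.37 ± 0.12, adjusted p = 0.0825), also below, while Sdhb, Sdhc and Sdhd lay at -0.16, 0.07 and 0.28. In complex III, Uqcrfs1 lay at 0.42 ± 0.25 and the core subunit Uqcrc2 at -0.01 ± 0.09. In complex IV, Ndufa4 lay at -0.38 ± 0.14 (adjusted p = 0.100), and Cox4i2 and Cox6b2, both scarce, at 2.40 ± 0.98 and 0.72 ± 0.55. In complex V, Atp5s lay at -0.81 ± 0.24 (adjusted p = 0.0583) and Atp5e at 0.59 ± 0.33. Of the assembly factors, Sdhaf1 had 4.71 and 4.58 CPM in LrNK labelled CD8KO and 0.905, 2.25 and 1.61 CPM in cNK labelled CD8KO (1.67 ± 0.47, adjusted p = 0.0501), above in both, with Ndufaf6 at 0.54 ± 0.35 and Ndufaf4 at -0.37 ± 0.14.

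Called in both cell type comparisons, which share no samples, were 8 genes: Ndufc2, Atp5d, Uqcrq, Atp5g1, Cox7a2l, mt-Co2, mt-Atp6 and mt-Co3, the nuclear ones being 5 of the 8 called under the CD8KO label and 5 of the 18 called in B6. Of all genes, 15.4 percent were called higher under the CD8KO label and 10.9 percent in B6. The share of all genes called in both was not taken, so the overlap is not read as particular to these members.

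Of the mitochondrial genome's own genes, mt-Co2, mt-Co3 and mt-Atp6 were higher in LrNK than in cNK under both labels. mt-Atp6, the proton channel subunit of complex V, had 38.9 and 54.4 CPM in LrNK labelled CD8KO and 16.3, 14.4 and 13.7 CPM in cNK labelled CD8KO (log2 change 1.79 ± 0.21, adjusted p = 0.00332). It had 58.8, 39.4 and 48.3 CPM in LrNK B6 against 19.9, 16.8 and 15.7 CPM in cNK B6 (1.56 ± 0.18, adjusted p = 0.00253). mt-Co2, the complex IV subunit that receives electrons from cytochrome c, had 91.9 and 82.2 CPM in LrNK labelled CD8KO and 43.4, 43.8 and 40.0 CPM in cNK labelled CD8KO (1.16 ± 0.10, adjusted p = 0.00152). It had 112, 72.8 and 85.7 CPM in LrNK B6 against 53.6, 46.6 and 41.6 CPM in cNK B6 (1.00 ± 0.17, adjusted p = 0.0109). mt-Co3, another core subunit of complex IV, had 46.4 and 32.7 CPM in LrNK labelled CD8KO and 20, 15.9 and 13.2 CPM in cNK labelled CD8KO (1.38 ± 0.23, adjusted p = 0.0104). It had 64.9, 28.9 and 39.3 CPM in LrNK B6 against 19.7, 18.3 and 14.8 CPM in cNK B6 (1.40 ± 0.29, adjusted p = 0.0208). LrNK samples were higher without overlap for all 3 genes. Of the 13 mt- genes under the CD8KO label, 5 were higher without overlap, against 23.3 percent of all genes, and 1 lower, against 38.4 percent. In B6, 4 were higher without overlap, against 17.0 percent of all genes, and 0 lower, against 31.7 percent. The abundant mt- genes differed less: mt-Co1, the catalytic subunit of complex IV, had 5216 and 4103 CPM in LrNK labelled CD8KO, 6525, 3791 and 4881 in LrNK B6, 4524, 4497 and 4301 in cNK labelled CD8KO and 4574, 4472 and 4248 in cNK B6, with overlapping groups. mt-Nd5, a proton-pumping subunit of complex I, had 541 and 545 CPM in LrNK labelled CD8KO, 673, 416 and 458 in LrNK B6, 728, 740 and 779 in cNK labelled CD8KO and 733, 649 and 778 in cNK B6. It alone of the 13 had a log2 change below 0 in both cell type comparisons, -0.34 ± 0.10 (adjusted p = 0.0542) under the CD8KO label and -0.41 ± 0.18 (adjusted p = 0.181) in B6. Over the 13 genes the median was 0.30 under the CD8KO label and 0.33 in B6. Under the CD8KO label edgeR called 3 higher, against 15.4 percent of all genes, and 0 lower, against 11.6 percent. In B6 it called 3 higher, against 10.9 percent, and 0 lower, against 9.83 percent. At an unadjusted p under 0.05 there were 4 of 13 in each, against 6966 of 17795 genes under the CD8KO label and 5454 of 16456 in B6. DESeq2 called 1 lower under the CD8KO label and 0 in B6. Without cNK B6 sample 2 or 3, 1 mt- gene was called higher in B6, and without LrNK B6 sample 2, 6 were.

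The mt- genes that were called have near-identical nuclear copies, and the copies moved further than they did. On chromosome 1 a stretch of pseudogenes between bases 24611535 and 24616197 (GRCm38) holds copies of 7 of the 13, at 98 percent identity or more: mt-Atp6 (Gm10925), mt-Co1 (Gm29216), mt-Co2 (Gm28661), mt-Co3 (Gm28437), mt-Nd3 (Gm28438), mt-Nd4 (Gm28439) and mt-Nd4l (Gm10222). The first 90 coding bases of mt-Co2, its chromosome 1 copy Gm28661 and a chromosome 2 copy Gm13341 are shown because a read from this stretch fits mt-Co2 and Gm28661 equally, with capitals where a copy differs from mt-Co2.
mt-Co2: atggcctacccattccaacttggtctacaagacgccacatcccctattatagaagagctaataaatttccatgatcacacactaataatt
Gm28661: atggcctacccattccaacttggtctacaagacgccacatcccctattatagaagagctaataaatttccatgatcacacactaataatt
Gm13341: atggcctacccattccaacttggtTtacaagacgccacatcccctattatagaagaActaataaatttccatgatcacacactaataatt
Gm28661 had 183, 71.6 and 68.3 CPM in the libraries labelled LrNK CD8KO and 252, 66, 244 and 64.5 CPM in those of LrNK B6, against 16.1, 13.4 and 14.4 in cNK labelled CD8KO and 17.4, 14.8 and 16.7 in cNK B6. It was highest in the 3 LrNK libraries with few detected genes. The 7 copies together took 0.0759 and 0.0351 percent of counts in LrNK labelled CD8KO and 0.0946, 0.0296 and 0.0788 percent in LrNK B6, against 0.00563 to 0.00755 percent in cNK. All 7 were called higher in LrNK in both comparisons, with a median log2 change of 3.21 under the CD8KO label and 3.02 in B6. The 7 mt- genes with such a copy had a median of 0.70 under the CD8KO label and 0.51 in B6, and the 6 without one had 0.21 and 0.22, none of these 6 called by edgeR (1 had an unadjusted p under 0.05 in each comparison). The copies aligned over 681 of 684 bases of mt-Co2, 783 of 784 of mt-Co3 and 678 of 681 of mt-Atp6, but over 483 of 1545 of mt-Co1. How reads that fit both places were counted is not given in the sources used here. The levels of mt-Co2, mt-Co3 and mt-Atp6 beside those of abundant mt- genes such as mt-Co1 carry this limit. Summed with their copies, 5 mt- genes were called higher under the CD8KO label.

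**Figure D3:**
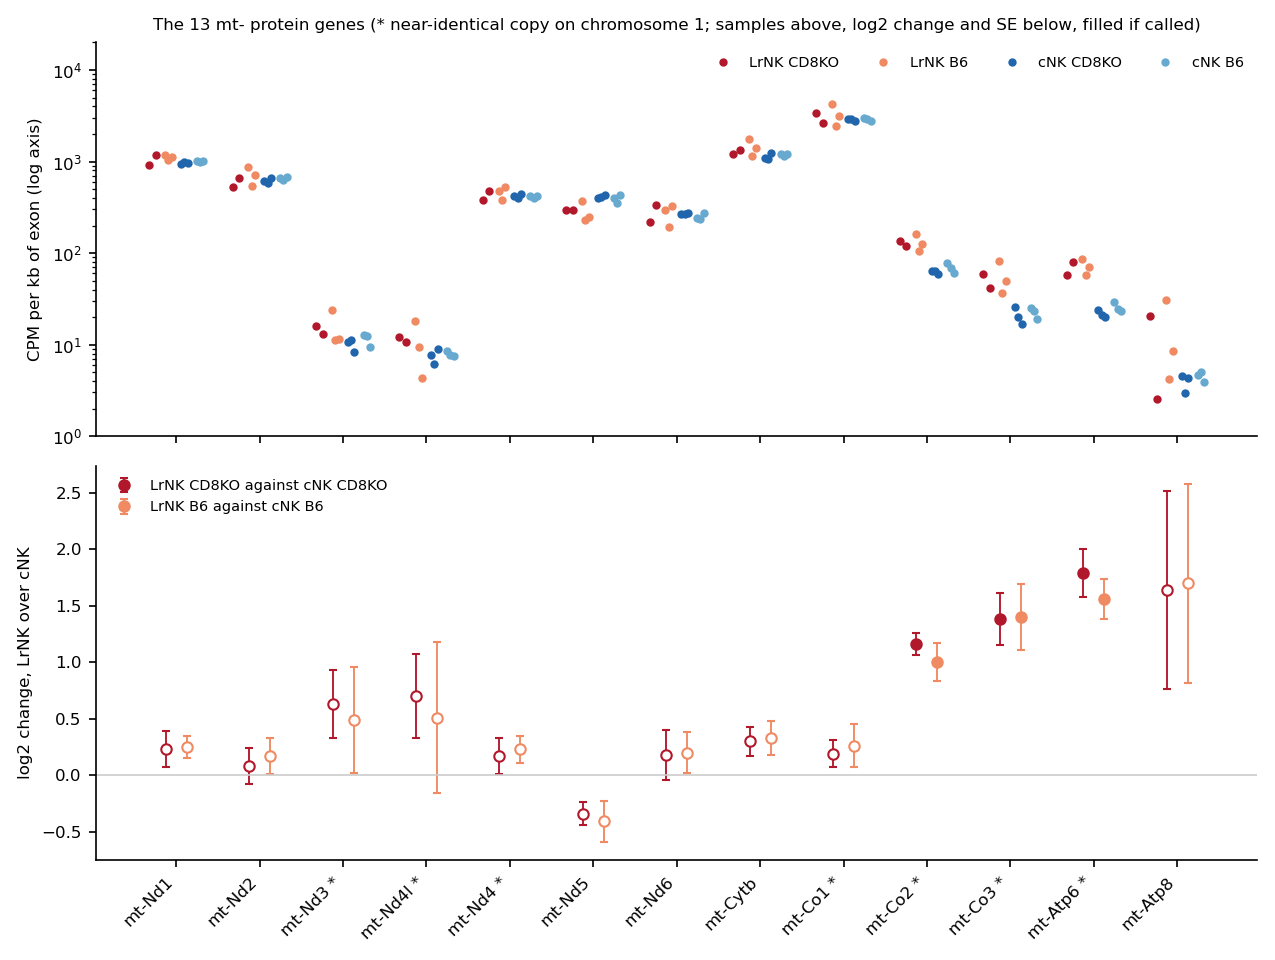
The 13 mt- protein genes by complex, with CPM per kb of exon for each sample on a log axis above (2 LrNK CD8KO samples, 3 in each other group) and the log2 change of LrNK over cNK with its SE below, filled where the adjusted p was under 0.05. mt-Co2, mt-Co3 and mt-Atp6 are filled in both comparisons, with changes of 1.00 to 1.79, and all 3 carry the asterisk for a near-identical copy on chromosome 1.

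The mt- share of counts did not follow the nuclear share. It was 0.939 and 0.901 percent in LrNK labelled CD8KO, 1.23, 0.787 and 0.984 percent in LrNK B6, 0.886, 0.877 and 0.893 percent in cNK labelled CD8KO and 0.917, 0.881 and 0.890 percent in cNK B6. The ratio of mt- to nuclear counts was 1.27 and 1.31 in LrNK labelled CD8KO, 1.54, 0.920 and 1.04 in LrNK B6, 1.22, 1.20 and 1.30 in cNK labelled CD8KO and 1.32, 1.21 and 1.31 in cNK B6. LrNK B6 held both the highest and the lowest ratio, and its range covered those of all other groups.

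By label, LrNK showed lower values for most nuclear members in samples labelled CD8KO, but none passed the test. edgeR called 0 of 93 members in either direction, as it called 0 percent of all 16504 genes higher and 0 percent lower, and DESeq2 and voom also called 0 members. At an unadjusted p under 0.05 there were 5 members and 615 of all genes. The median log2 change was -0.29 (quartiles -0.46 and -0.16), against 0.02 over all genes, with 79 members below 0 and 14 above. It was -0.31 in complex I, -0.22 in II, -0.30 in III, -0.36 in IV, -0.29 in V and -0.33 in the assembly factors, against -0.08 over the 13 mt- genes. In the cytosolic and mitochondrial ribosome lists described below it was -0.26 and -0.27, with 81 of 88 and 58 of 77 below 0. For 29 members both samples labelled CD8KO lay below all 3 LrNK B6 samples, against 8.47 percent of all genes, and for 1 member, Cox6b2, they lay above, against 9.84 percent of all genes. Within the samples with few detected genes (1 labelled CD8KO, 2 B6) the median was -0.22 with 73 members lower, and within those with many (1 each) it was -0.36 with 85 lower. The mt- median was -0.12 in the samples with few detected genes and 0.18 in those with many. The samples labelled CD8KO also had lower summed NK markers, higher summed cNK markers and, in each set, more neutrophil and monocyte counts, as given above. The part of these in the lower values was not tested.

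Members with full separation included subunits of every complex. Ndufb7 had 79.7 and 79.7 CPM in LrNK labelled CD8KO and 110, 111 and 112 CPM in LrNK B6 (log2 change -0.46 ± 0.21, SE). Ndufs7 had 69.6 and 60.8 CPM in LrNK labelled CD8KO and 94.1, 93.0 and 116 CPM in LrNK B6 (-0.62 ± 0.22). Sdhc had 61.9 and 60.5 CPM in LrNK labelled CD8KO and 83.0, 80.1 and 128 CPM in LrNK B6 (-0.65 ± 0.27). These 3 genes, and Uqcr11, Ndufs6, Uqcrq and Atp5o below, were also among those called higher in LrNK B6 than in cNK B6. That comparison rests on the same LrNK B6 samples. Uqcr11 had 40.9 and 46.2 CPM in LrNK labelled CD8KO and 61.2, 68.3 and 56.7 CPM in LrNK B6 (-0.50 ± 0.25). Cox6b1, the subunit that bridges complex IV monomers, had 75.1 and 87.4 CPM in LrNK labelled CD8KO and 111, 124 and 149 CPM in LrNK B6 (-0.64 ± 0.25). Atp5k had 19.4 and 19.8 CPM in LrNK labelled CD8KO and 43.7, 27.1 and 32.4 CPM in LrNK B6 (-0.78 ± 0.29). Ndufaf5, an assembly factor that modifies Ndufs7, had the lowest log2 change of all members, -1.09 ± 0.48, with 4.76 and 7.93 CPM in LrNK labelled CD8KO and 15.9, 11.8 and 13.9 CPM in LrNK B6. The adjusted p was 1.00 for each gene of this paragraph. The members with the highest CPM, Atp5a1 and Atp5b, lay near 0, both with overlapping groups. Atp5a1 had 579 and 493 CPM in LrNK labelled CD8KO and 553, 468 and 530 CPM in LrNK B6. Atp5b had 677 and 596 CPM in LrNK labelled CD8KO and 654, 606 and 669 CPM in LrNK B6. The next by mean CPM in LrNK B6, Cox6a1 and Cox8a, had lower means under the CD8KO label. Cox6a1 had 208 and 337 CPM in LrNK labelled CD8KO and 291, 427 and 384 CPM in LrNK B6, with overlap. Cox8a had 203 and 234 CPM in LrNK labelled CD8KO and 252, 316 and 342 CPM in LrNK B6, without overlap. Cox6b2, a testis form of subunit VIb, had only 1.39 and 1.10 CPM in LrNK labelled CD8KO and 0, 0.326 and 0.205 CPM in LrNK B6 (2.75 ± 2.36).

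The remaining members at the ends of their complexes in this label comparison were uneven. Ndufs6 had 26.6 and 38.5 CPM in LrNK labelled CD8KO and 42.2, 55.9 and 55.1 CPM in LrNK B6 (log2 change -0.63 ± 0.31), without overlap. Ndufa12, an accessory subunit of complex I, had 15.8 and 30.0 CPM in LrNK labelled CD8KO and 23.7, 56.3 and 41.8 CPM in LrNK B6 (-0.81 ± 0.50), with overlap. Cox7c of complex IV lay at -0.48 ± 0.24 and Atp5o of complex V at -1.08 ± 0.50, both lower in each sample labelled CD8KO. Sdhd and Uqcrq lay at -0.27 ± 0.32 and -0.56 ± 0.37 with overlapping groups, and Sdhaf3 at -0.69 ± 0.75. Above 0 were Ndufb2 (0.29 ± 1.10), Ndufb8 (0.23 ± 0.37), Uqcrfs1 (0.06 ± 0.34), Uqcrc1 (0.06 ± 0.24), Cox4i2 (0.91 ± 2.99), Ndufaf4 (0.42 ± 0.66) and Ndufaf7 (0.53 ± 0.40), and all overlapped. The adjusted p was 1.00 for each of these genes too.

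**Figure D4:**
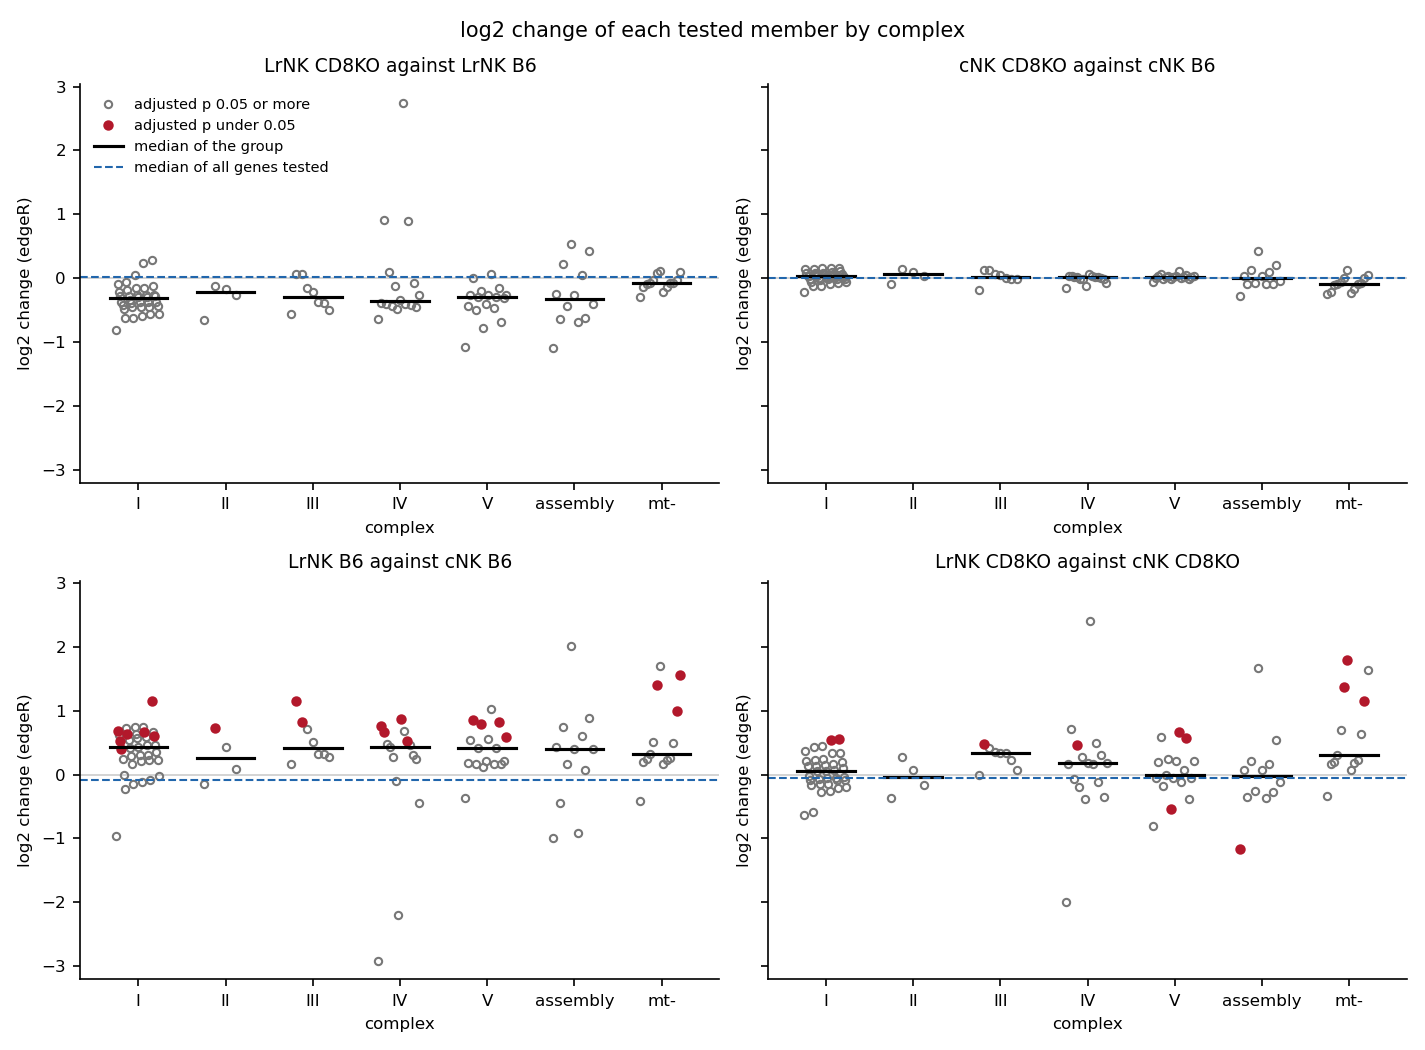
The edgeR log2 change of each tested member (circles, filled red at an adjusted p under 0.05) by complex, with the group median as a black line and the median of all genes tested as a dashed line, in the 4 comparisons. LrNK CD8KO against LrNK B6 has group medians of -0.36 to -0.22 in the nuclear complexes and no filled circle, cNK CD8KO against cNK B6 clusters at 0, and LrNK B6 against cNK B6 has medians of 0.26 to 0.43.

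In cNK the label made little difference to these genes. edgeR called 0 of 92 nuclear members, while it called 0.499 percent of all 16619 genes higher and 0.812 percent lower, and DESeq2 and voom called 0 members too. At an unadjusted p under 0.05 in edgeR there were 7 of 92 members and 2141 of 16619 genes. The median log2 change was 0.02 (quartiles -0.02 and 0.06), against -0.00 over all genes. In all cNK samples labelled CD8KO, 7 members lay above all cNK B6 samples, against 9.68 percent of all genes, and 3 lay below, against 8.35 percent of all genes. The 3 lower, named after their values were seen, were Uqcrb, Ndufab1 and Ndufaf4. Uqcrb, a ubiquinone-binding subunit of complex III, had 37.3, 35.0 and 37.1 CPM in cNK labelled CD8KO and 40.6, 42.3 and 40.8 CPM in cNK B6 (-0.18 ± 0.06, adjusted p = 0.179, the lowest of the members). Ndufab1, the mitochondrial acyl carrier protein that is also part of complex I, had 18.9, 17.9 and 18.9 CPM in cNK labelled CD8KO and 21.2, 21 and 21.9 CPM in cNK B6 (-0.21 ± 0.07, adjusted p = 0.218). Among those above were Sdha, with 269, 277 and 261 CPM in cNK labelled CD8KO and 240, 250 and 241 CPM in cNK B6 (0.14 ± 0.05, adjusted p = 0.217), and Ndufs3 of the ubiquinone-reducing module, with 45.9, 49.4 and 45.9 CPM in cNK labelled CD8KO and 40.0, 45.2 and 40.6 CPM in cNK B6 (0.16 ± 0.07, adjusted p = 0.322). At the ends of their complexes the changes stayed small: Ndufb9 0.16 and Ndufa5 -0.13 in complex I, Sdhb 0.10 and Sdhd -0.10 in II, Uqcrq 0.13, Uqcr11 0.12 and Uqcrfs1 -0.01 in III, Cox6b1 0.06, Cox8a 0.04, Cox7b -0.12 and Cox6b2 -0.15 in IV. In complex V they were 0.11 for Atp5o, 0.06 for Atp5e, -0.06 for Atp5l and -0.02 for Atp5mpl. The assembly factors spread further, with Sdhaf1 at 0.42 ± 0.31, Ndufaf8 at 0.20 ± 0.10, Ndufaf4 at -0.10 ± 0.08 and Sdhaf3 at -0.28 ± 0.20, and none of these genes passed.

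Over the 13 mt- genes in cNK the median by label was -0.09, and edgeR, DESeq2 and voom called 0. In edgeR 2 of the 13 had an unadjusted p under 0.05, against 2141 of 16619 genes. The lowest adjusted p among them was 0.318, for mt-Atp6, with 16.3, 14.4 and 13.7 CPM in cNK labelled CD8KO and 19.9, 16.8 and 15.7 CPM in cNK B6 (-0.25 ± 0.10).

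Whether the label's effect differed between the cell types was tested as the difference of log2 changes, LrNK minus cNK, in 1 fit of all 4 groups. edgeR called 0 of 93 members, against 0.00518 percent of all 19287 genes higher and 0.0363 percent lower. At an unadjusted p under 0.05 there were 17 of 93 members and 1669 of 19287 genes. The median difference was -0.33 (quartiles -0.50 and -0.19), against 0.04 over all genes, with 80 members below 0, and -0.04 over the mt- genes. In the cytosolic and mitochondrial ribosome lists described below the median difference was -0.24 and -0.27. The lowest adjusted p values were those of Ndufs7 (-0.70 ± 0.16, adjusted p = 0.232) and Ndufb7 (-0.51 ± 0.14, adjusted p = 0.330). Among the farthest from 0 were Atp5o (-1.19 ± 0.43), Ndufaf5 (-1.05 ± 0.40), Ndufa12 (-0.85 ± 0.50), Ndufaf8 (-0.83 ± 0.41), Atp5k (-0.79 ± 0.24), Ndufs6 (-0.73 ± 0.28), Cox6b1 (-0.70 ± 0.22), Uqcrq (-0.70 ± 0.37), Sdhc (-0.69 ± 0.24) and Uqcr11 (-0.61 ± 0.21). Above 0 lay Cox6b2 (2.89 ± 1.66), Cox4i2 (1.07 ± 2.81), Ndufaf4 (0.52 ± 0.60) and Ndufaf7 (0.48 ± 0.37), while Atp5a1 (0.03 ± 0.14) and Atp5b (0.01 ± 0.14) were near it. DESeq2 called Ndufs7 and Ndufb7 and no other member, Ndufs7 at -0.67 (adjusted p = 0.00760) and Ndufb7 at -0.48 (adjusted p = 0.0120). Leaving out the LrNK samples with few detected genes left 1 LrNK sample per label, with the spread taken from cNK alone. The difference was then -0.66 for Ndufs7 and -0.49 for Ndufb7. Without LrNK labelled CD8KO sample 2, Atp5o lay at -1.89 ± 0.34.

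Tissue-specific isoforms were near silent, and the ubiquitous forms carried the expression, in all 4 groups. Per kilobase of exon, Cox4i1 stood at 140 CPM in LrNK labelled CD8KO, 154 in LrNK B6, 135 in cNK labelled CD8KO and 137 in cNK B6, while Cox4i2, the form of lung and of low oxygen, stood at 0.605, 0.293, 0.119 and 0.135 in the same order of groups. Cox6a2, a form of striated muscle, was the exception, with 5.55 and 5.28 CPM per kb in LrNK labelled CD8KO and LrNK B6 and 7.83 and 7.71 in cNK labelled CD8KO and cNK B6, while the 4 muscle markers summed to at most 1.54 CPM in any sample. Cox6a2 had 2.53 and 5.02 CPM in LrNK labelled CD8KO, 4.77, 5.59 and 0.410 in LrNK B6, 5.80, 5.92 and 4.26 in cNK labelled CD8KO and 4.95, 4.58 and 6.20 in cNK B6, and the groups overlapped. Cox7a1, the muscle form of subunit VIIa, had 0 and 0.514 CPM in LrNK labelled CD8KO, 0, 0.408 and 0 in LrNK B6, 1.28, 1.11 and 1.22 in cNK labelled CD8KO and 1.22, 1.13 and 1.23 in cNK B6. It was higher in every cNK sample than in any LrNK sample, but did not pass (log2 change -1.99 ± 1.46 under the CD8KO label and -2.92 ± 1.85 in B6, adjusted p = 0.372 and 0.342). A count of 0 allows up to 0.0835 CPM in LrNK labelled CD8KO sample 1 and 0.0705 and 0.0768 CPM in LrNK B6 samples 1 and 3, taken as 3 counts of each library and covering counting error only. Cox7b2 had no counts in any library, and Cox8b none in LrNK, with 0.145 and 0.189 CPM per kb in cNK labelled CD8KO and cNK B6. For subunit c of complex V, whose 3 genes give the same mature protein, Atp5g2 and Atp5g3 stood at 111 and 88.6 CPM per kb in LrNK B6 and 78.6 and 64.5 in cNK B6, against 14.3 and 8.48 for Atp5g1, the only 1 of the 3 that was called.

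**Figure D5:**
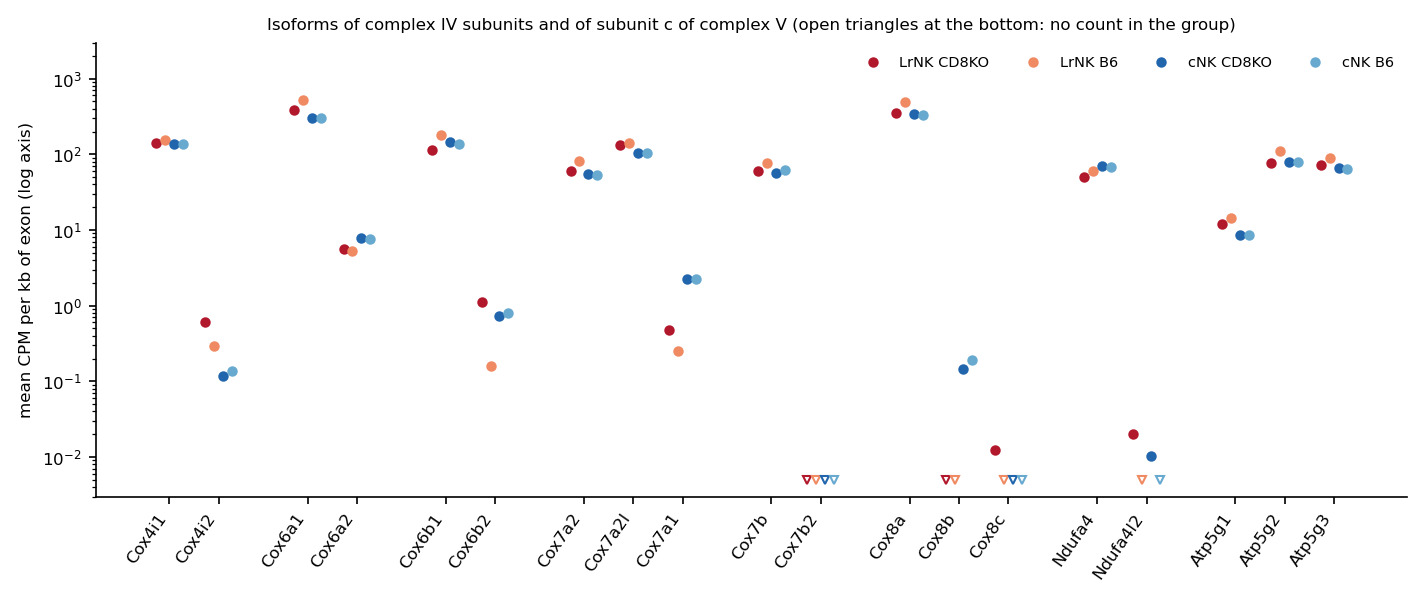
Mean CPM per kb of exon (log axis) of isoform families of complex IV and of subunit c of complex V in LrNK CD8KO, LrNK B6, cNK CD8KO and cNK B6, with open triangles at the bottom for groups without a count. Ubiquitous forms such as Cox4i1 lie near 140, while Cox4i2 lies at 0.605 or below and Cox6a2 at 5.28 to 7.83.

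Other genes of mitochondria were described from lists. Ppargc1a, the coactivator known for driving mitochondrial biogenesis, had 0.0278 and 0 CPM in LrNK labelled CD8KO and 0, 0 and 0 CPM in LrNK B6, against 2.74, 2.60 and 2.53 CPM in cNK labelled CD8KO and 3.01, 2.49 and 3.68 CPM in cNK B6. It was called lower in LrNK under both labels (adjusted p = 0.00734 under the CD8KO label and 0.00888 in B6). Its relative Ppargc1b had 9.55 and 17.3 CPM in LrNK labelled CD8KO and 5.27, 6.67 and 5.43 CPM in cNK labelled CD8KO (log2 change 1.35 ± 0.32, adjusted p = 0.0314). Tfe3, a regulator of lysosomal and mitochondrial genes, had 78.8 and 68.6 CPM in LrNK labelled CD8KO and 35.0, 35.0 and 34.9 CPM in cNK labelled CD8KO (1.20 ± 0.10, adjusted p = 0.00120), and was called higher in B6 too (0.71 ± 0.16, adjusted p = 0.0274). Of the 10 biogenesis regulators tested, 2 were called higher and 1 lower under the CD8KO label, where 15.4 percent of all genes were higher and 11.6 percent lower. In B6 1 was higher and 1 lower, where 10.9 percent of all genes were higher and 9.83 percent lower, so both counts lie near the share over all genes.

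Among genes that maintain and express mitochondrial DNA, calls were lower in LrNK. Polg, the mitochondrial DNA polymerase, had 58.1 and 55.2 CPM in LrNK labelled CD8KO and 122, 131 and 129 CPM in cNK labelled CD8KO (log2 change -1.04 ± 0.09, adjusted p = 0.00157). It had 61.0, 47.7 and 38.1 CPM in LrNK B6 against 118, 113 and 116 CPM in cNK B6 (-1.16 ± 0.18, adjusted p = 0.00753). The list of maintenance and expression genes had 0 of 17 higher and 2 lower in each comparison, with medians of -0.16 under the CD8KO label and -0.34 in B6. All genes were called lower at 11.6 percent under the CD8KO label and 9.83 percent in B6, so these counts lie near the share over all genes. The other lower calls were Tfam, which packages the DNA, under the CD8KO label (-0.46 ± 0.12, adjusted p = 0.0439) and Ssbp1, which binds single strands, in B6 (-0.65 ± 0.13, adjusted p = 0.0162). Cytochrome c (Cycs), the carrier between complexes III and IV, had 83.4, 78.0 and 105 CPM in LrNK B6 and 64.6, 67 and 56.0 CPM in cNK B6 (0.58 ± 0.14, adjusted p = 0.0326). For the counts that follow, all genes were called at 15.4 percent higher and 11.6 percent lower under the CD8KO label and at 10.9 percent higher and 9.83 percent lower in B6. Of 19 complex IV assembly genes, 2 were called higher and 4 lower under the CD8KO label and 2 higher in B6, where Cmc2 and Cox14 were the higher ones each time. Cox17, the copper chaperone of complex IV, had 2.70 and 3.70 CPM in LrNK labelled CD8KO and 11.3, 10.4 and 12.8 CPM in cNK labelled CD8KO (-1.71 ± 0.27, adjusted p = 0.00865). Of 16 other assembly factors, 3 were called lower under the CD8KO label (Acad9, Atpaf1 and Tmem186) and 1 higher in B6 (Uqcc2). In the TCA cycle, which feeds the chain, Mdh2 was called higher under both labels (0.58 ± 0.11 under CD8KO, 0.63 ± 0.11 in B6), and over its 17 genes the medians were -0.04 and -0.01. Of the mitochondrial ribosome's 77 tested genes, 4 were higher and 7 lower under the CD8KO label and 1 higher and 1 lower in B6, with medians of -0.04 and 0.19. Of the cytosolic ribosome list 11 of 88 genes were higher and 1 lower under the CD8KO label and 15 of 87 higher and 1 lower in B6, with a median of 0.47 in B6 beside the 0.41 of the nuclear members. This list took protein-coding genes by symbols starting Rpl or Rps, so not every entry need be a ribosomal subunit. Its higher calls include Rps19bp1, Rpl10-ps3, Rpl36a-ps1 and Rps12-ps3. By label edgeR called 0 genes of any of these lists, in LrNK or in cNK. In LrNK the medians by label were -0.27 for the mitochondrial ribosome, -0.26 for the cytosolic ribosome, -0.26 for complex IV assembly, -0.39 for other assembly factors, -0.07 for the TCA cycle, 0.06 for mitochondrial DNA maintenance and 0.10 for the regulators.

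Short genes among the members had the larger differences between LrNK B6 and cNK B6. Across 92 members the Spearman correlation of the log2 change with exon length was -0.25, and across 12767 genes it was -0.26, given as a description since genes share these libraries. The 31 members of at most 1232 exon bases had a median of 0.51, and the 31 of over 2180 bases 0.22. The same members differed by length within LrNK B6, where sample 2 against samples 1 and 3 gave a correlation of -0.30, while across all genes it was 0.03. The part of length in the cell type differences was not tested. Of the 98 members, 36 share exon bases with another gene, 3 of them over 50 percent, and 16 have a near-identical copy elsewhere, such as Atp5g1 (Gm10039), Uqcr11 (Gm16418) and Cox7a2l (Gm6969) among those called, so their counts are uncertain to the extent that reads were split.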

How the data were processed

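The deposited files held raw read counts per gene, 1 table per library, as the values show: whole numbers with different totals. HISAT2 2.1.0 and GRCm38 are named in the submitters' processing notes. How reads were counted (program, annotation, strand) is not given in the sources used here. Per the labels' protocols, cells were sorted on a BD Aria II and libraries were made from total RNA with a TruSeq kit. Even numbers made up 49.5 to 65.2 percent of counts from 1 to 20. Identifiers were matched to GENCODE M21 (54495 matched, 37 not). Libraries of a group with chi-square per degree of freedom under 4 were summed. Genes were tested with edgeR 4.0.16 (R 4.3.3): TMM scaling, filterByExpr (minimum count 10, minimum total 15), quasi-likelihood test on the groups compared, Benjamini-Hochberg adjustment over all genes tested, called at adjusted p under 0.05. Of the 98 nuclear members 92 or 93 passed the filter. Cox7b2, Cox8b, Cox8c, Ndufa4l2 and a second Atp5o identifier, which had no counts, were never tested, and Cox4i2 in some comparisons. CPM and CPM per kb of exon were computed from the counts. Errors are SE for log2 changes and SD between samples otherwise. Near-identical copies were found with blastn 2.17.0 (150 aligned bases or more, identity 98 percent or more). Genes were named by rule: every called member, the 2 largest positive and 2 largest negative changes of each complex, the 2 members of each complex highest per length in cNK B6, and isoform families. Ndufs1 and Uqcrfs1 in B6, and Ndufs7, Ndufb7, Atp5b, Cox6a1 and Cox8a by label in LrNK, were added after their values were seen. The edgeR fit was run on counts simulated from the single libraries before summing. Its LrNK groups thus held more samples than the reported fits, and its outcome is not given here. Members, lists, comparisons and limits were chosen with earlier results of these data known. Alternatives were other scalings and filters, DESeq2 1.42.0, limma voom 3.58.1, a replicate block, single libraries, leaving out samples, and, chosen after seeing the data, leaving out LrNK samples with fewer than 16000 detected genes and summing mt- genes with their copies.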

Additional observations from a re-analysis of the deposited data

Results flagged for a closer look

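For 3 members both LrNK samples labelled CD8KO lay below all LrNK B6 samples while all cNK samples labelled CD8KO lay above all cNK B6 samples. Of the members tested, 29 of 93 lay below without overlap in LrNK (8.47 percent of all genes did) and 7 of 92 above in cNK (9.68 percent of all genes). edgeR's test of the difference did not pass for any of the 3, so a difference in direction is not shown. Ndufb9, an accessory subunit of complex I, had 11.1 and 10.3 CPM in LrNK labelled CD8KO and 20, 12.2 and 16.1 CPM in LrNK B6, with 14.4, 13.5 and 14.2 CPM in cNK labelled CD8KO and 12.6, 11.9 and 13 CPM in cNK B6. Its log2 change in LrNK minus that in cNK was -0.72 (adjusted p = 0.514). Atp5o, the stalk subunit of complex V, had 4.93 and 10.2 CPM in LrNK labelled CD8KO and 15.2, 14.0 and 20.3 CPM in LrNK B6, with 11.5, 11 and 10.2 CPM in cNK labelled CD8KO and 9.90, 10.1 and 10.1 CPM in cNK B6. Its difference was -1.19 (adjusted p = 0.481). Ndufv3, of the NADH-oxidising module of complex I, had 51.6 and 55 CPM in LrNK labelled CD8KO and 58.3, 69.4 and 75.9 CPM in LrNK B6, with 48.7, 52.6 and 47.7 CPM in cNK labelled CD8KO and 44.6, 45.6 and 43.3 CPM in cNK B6. Its difference was -0.49 (adjusted p = 0.537).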

How the results depend on the processing

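LrNK samples were few and uneven, and scarce members had the widest errors, such as Cox7a1 (SE 1.85). Where an omission left 1 sample in a group, that sample was assumed to vary like the other groups. For LrNK B6 against cNK B6 the 18 higher nuclear calls became 31 with DESeq2, 10 with no filter and 53 (with 11 lower) without the LrNK samples with few detected genes, and voom gave 1 lower call. mt- lower calls became 1 with all 4 groups in 1 fit and 3 without those samples. Leaving out 1 sample gave 1 to 36 higher and 0 to 2 lower nuclear calls, 1 to 6 higher and 0 to 1 lower mt- calls, and medians of 0.32 to 0.44. Ndufc2 and mt-Atp6 alone kept their call under all 10 other settings and all 6 omissions of a sample. Atp5s (main log2 change -0.36) turned to 0.41 without the LrNK samples with few detected genes, and the cause was not tested.

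For LrNK labelled CD8KO against cNK labelled CD8KO, the 6 higher and 2 lower nuclear calls became 10 and 7 with every library as its own sample (mt- lower 1), 10 and 6 with DESeq2 (mt- lower 1), 1 and 1 with voom, 2 higher with all 4 groups in 1 fit (median 0.01), and 25 and 19 without the sample with few detected genes (mt- 8 higher, 1 lower). Summing mt- genes with their copies gave 5 higher mt- calls. Leaving out 1 sample gave 0 to 28 higher and 0 to 21 lower nuclear calls, 2 to 8 higher and 0 to 3 lower mt- calls and medians of 0.05 to 0.08. mt-Co2 and mt-Atp6 kept their call in all 10 other settings and all 5 omissions.

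For the genes named in LrNK B6 against cNK B6, 293 values under other settings and 138 with 1 sample left out kept direction and side of the threshold, 25 and 59 fell short of it, and 21 and 7 newly passed it. By label no member was called in LrNK or cNK under any of the alternatives run. Leaving out 1 sample gave medians of -0.40 to -0.24 in LrNK and -0.01 to 0.05 in cNK. For the difference of the label's effects, DESeq2 gave 2 lower nuclear calls, leaving out the LrNK samples with few detected genes 34 lower and 6 higher mt- calls, and leaving out 1 sample 0 to 1 lower calls with medians of -0.43 to -0.23.

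Replicate numbers were not taken as pairs, since no label ties them to a shared source. Deviations of same-numbered samples correlated at 0.0143 to 0.0479 in cNK by label, at 0.299 and 0.492 in LrNK by label, where only 2 pairs exist, at -0.101 to -0.00994 for LrNK B6 with cNK B6, and at 0.00497 and 0.0553 for LrNK labelled CD8KO with cNK labelled CD8KO. With the replicate block, nuclear calls were 7 higher in LrNK B6 against cNK B6 and 0 higher and 0 lower in LrNK labelled CD8KO against cNK labelled CD8KO, it changed no other count beyond 1.5 times, and medians were -0.26 and 0.02 by label in LrNK and cNK, 0.39 and 0.03 for LrNK against cNK in B6 and under the CD8KO label, and -0.31 for the difference. Scaling by DESeq2's size factors or without mt- genes moved the median of all genes by at most 0.03. In a window of 150 bases around the start, NRF1 letters stood in 25.6 percent of members' promoters against 5.25 percent of genes, YY1 in 12.8 against 2.02, ETS in 6.41 against 3.47, SP in 21.8 against 22.1 and TATAAA in 5.13 against 8.08 percent.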
